A study of Mus musculus with 24 samples.

Results

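Of the 1907 mature microRNA (miRNA) names counted in mouse subcutaneous fat, 7 belong to miR-103, miR-107 and miR-33, miRNAs that lie inside genes of lipid and coenzyme metabolism. They were chosen by name: mmu-miR-103-3p, its 5p arms mmu-miR-103-1-5p and mmu-miR-103-2-5p, mmu-miR-107-3p and mmu-miR-107-5p, and mmu-miR-33-5p and mmu-miR-33-3p, written below without the species prefix. An arm is the part of the hairpin precursor, on its 5′ or 3′ side, that becomes the mature miRNA. The study set a high-fat diet against a control diet after 1 day, 1 week and 3 weeks, with 4 small RNA libraries for each diet at each time and 24 in all, from total RNA of the tissue. The labels give no strain, sex, age or diet composition. They do not tie libraries to mice either, so every p-value rests on differences among libraries that may be only technical. In whole tissue, fewer cells of a type cannot be told apart from less RNA per cell.

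The mouse has 2 miR-103 genes, each in an intron of a pantothenate kinase gene, and miR-107 lies in an intron of another such gene; these kinases catalyse the first committed step of coenzyme A synthesis. In mice miR-103 and miR-107 are known to lower insulin sensitivity of liver and fat, in part through caveolin-1 of the adipocyte surface. The miR-33 gene lies in an intron of Srebf2, which encodes the transcription factor SREBP2 that turns on cholesterol synthesis and uptake; miR-33-5p represses Abca1, the transporter that exports cholesterol, and miR-33-3p is reported to share some of its targets. A miRNA finds its targets mainly through its seed, bases 2 to 8.

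The mature sequences show why the miR-103 and miR-107 counts have to be read together. They are taken from RefSeq (GRCm38.p6), 5′ to 3′, with the seed in capitals, and all 7 names were matched.
miR-103-3p: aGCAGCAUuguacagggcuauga
miR-107-3p: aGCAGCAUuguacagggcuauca
miR-103-2-5p: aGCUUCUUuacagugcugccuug
miR-103-1-5p: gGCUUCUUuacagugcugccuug
miR-107-5p: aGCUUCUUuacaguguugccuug
miR-33-5p: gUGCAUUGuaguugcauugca
miR-33-3p: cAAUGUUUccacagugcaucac

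With positions counted from 1 at the 5′ end, miR-103-3p and miR-107-3p differ at 1 of 23 bases, G22C, next to the 3′ end, and have the same seed. Among the 5p arms, miR-103-2-5p differs from miR-103-1-5p by A1G, and from miR-107-5p by C16U. A read that ends before base 22 fits miR-103-3p and miR-107-3p alike, and how such reads were assigned is not given in the sources used here. Of the 1623 names with a sequence in RefSeq, only miR-103-3p and miR-107-3p had the seed GCAGCAU, only their 5p partners had GCUUCUU, and the seeds of the miR-33 arms, UGCAUUG and AAUGUUU, occurred in no other name.

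The same 3p sequence is cut from both miR-103 hairpins, so its reads fit 2 genes alike. Whether its count is the sum of both is not known, since the treatment of such reads is not stated. The hairpins are given below with both mature arms in capitals, since only the 5p arms tell the 2 genes apart.
Mir103-2: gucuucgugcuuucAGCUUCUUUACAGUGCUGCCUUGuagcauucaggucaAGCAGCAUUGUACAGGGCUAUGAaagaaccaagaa
Mir103-1: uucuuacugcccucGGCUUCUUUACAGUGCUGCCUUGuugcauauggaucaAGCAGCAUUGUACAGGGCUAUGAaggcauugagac
Mir107: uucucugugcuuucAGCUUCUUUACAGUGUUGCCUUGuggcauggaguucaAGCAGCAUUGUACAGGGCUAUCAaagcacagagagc
Mir33: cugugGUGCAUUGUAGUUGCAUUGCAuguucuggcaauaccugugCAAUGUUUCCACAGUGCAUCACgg

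On GRCm38, Mir103-2 lies at chr2:131288052-131288137 on the plus strand, in an intron of both protein-coding transcripts of Pank2 in GENCODE M21. Mir103-1 lies at chr11:35782396-35782481 on the plus strand, in intron 5 of 6 of Pank3. Mir107 lies at chr19:34820687-34820773 on the minus strand, in an intron of all 3 protein-coding transcripts of Pank1. Mir33 lies at chr15:82198122-82198190 on the plus strand, in intron 16 of 18 of Srebf2, and was intronic in 3 of its 4 protein-coding transcripts. Each hairpin is on the strand of its host gene and overlaps no exon of a protein-coding transcript of it.

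The libraries held between 1.99 and 16.3 M miRNA counts (median 5.30 M, where M is 1000000 counts). Levels are CPM, counts per 1000000 scaled by TMM (a size factor from the trimmed mean of log ratios between libraries), and a floor of 3 counts corresponded to 0.186 to 1.48 CPM. The adipocyte-enriched miR-148a-3p ranked 1 among all names and miR-378a-3p ranked 12, and the mean log2 CPM of 4 adipocyte-enriched miRNAs lay between 13.0 and 13.7 over the 24 libraries. Skeletal muscle and leukocyte markers varied far more. The mean of the 5 tested skeletal muscle miRNAs ran from 1.69 to 11.6, and that of 7 leukocyte miRNAs from 8.92 to 11.6. The 5p arm of endothelial miR-126a had 0 counts in every library, while its 3p arm was among the most abundant names. Between the diets, 0 markers of adipocytes, leukocytes, muscle, erythrocytes, endothelium, epithelium or liver passed for the mean contrast, against 0% of all tested miRNAs. In that order, their median log2 fold changes were −0.10, −0.25, 0.64, −0.22, 0.00, −0.08 and 0.65.

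The 7 arms differed widely in abundance. MiR-103-3p ranked 29 of 1907, with 0.490% of the scaled counts. MiR-107-3p ranked 197, miR-33-5p 323, miR-33-3p 372 and miR-103-2-5p 516. MiR-107-5p and miR-103-1-5p ranked 698 and 811 and did not pass the filter on low counts, which left 5 of the 7 arms among the 558 miRNAs tested. Their pooled within-group SD on the log2 CPM scale was 0.20 for miR-103-3p and 0.24 for miR-107-3p, below the median of 0.43 over the tested miRNAs, and only 21 of the 558 varied less than miR-103-3p. The miR-33 arms varied more than the median, with 0.56 for miR-33-5p and 0.53 for miR-33-3p.

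Between the diets, 0 of the 5 tested arms passed at any time by edgeR's quasi-likelihood test with Benjamini-Hochberg adjustment. The share of all 558 miRNAs called was 0% at day 1, 0% at week 1, 0% at week 3 and 0% for the mean of the 3 times, and at an unadjusted p under 0.05 it was 3.05%, 14.2%, 1.79% and 3.23%. Of the 5 arms, 0 had an unadjusted p under 0.05 in any of these 4 contrasts, and DESeq2 and limma-voom also called 0 arms. DESeq2 called 0 of the 558 in each of the 4, and limma-voom called 17 of 558 at week 1 and 0 in the others; limma-voom had 1 arm with an unadjusted p under 0.05 at week 1 and 1 at week 3. Without control replicate 4 at week 1, edgeR called 22 miRNAs at week 1, and without high-fat replicate 2 at week 3 it called 2 for the mean; none of these was one of the 5 arms. Whether the diet difference changed with time was tested jointly, and 0 of the 5 arms passed, against 0% of all tested and 7.35% at an unadjusted p under 0.05. No arm had high-fat and control libraries that did not overlap at the same time point, where 1.79% of the tested miRNAs did so at day 1, 2.87% at week 1 and 1.08% at week 3.

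**Figure D1:**
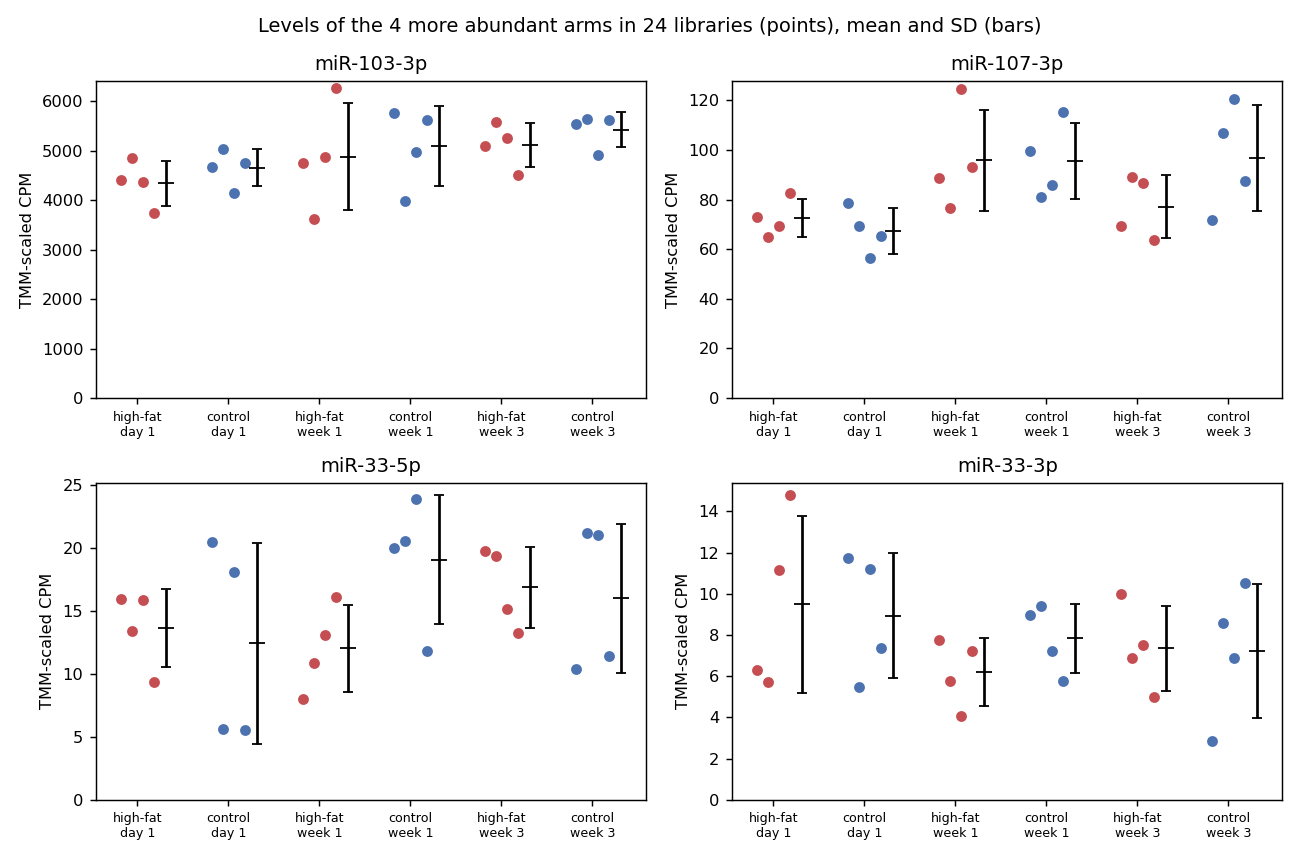
TMM-scaled CPM (linear axes from 0) of miR-103-3p, miR-107-3p, miR-33-5p and miR-33-3p in each of the 24 libraries, high-fat in red and control in blue, with the mean and SD of each group of 4 in black. The diets overlap at every time in all 4 panels, control libraries of miR-107-3p lie lower at day 1 (56.5 to 78.6 CPM) than at week 1 (81.1 to 115 CPM), and the control libraries of miR-33-5p at day 1 split between 5.57 and 20.5 CPM.

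MiR-103-3p, the abundant arm, differed little between the diets. At day 1 it had 4414, 4850.3, 4356 and 3733 CPM in the high-fat libraries and 4664, 5038, 4152 and 4756 CPM in the control libraries. At week 1 it had 4754, 3614, 4873 and 6271 CPM in the high-fat libraries and 5763, 3987, 4972 and 5612 CPM in the control libraries. At week 3 it had 5089, 5568, 5257 and 4512 CPM in the high-fat libraries and 5538, 5636, 4901 and 5616 CPM in the control libraries. The diets overlapped at each time, and high-fat replicates 2 and 4 at week 1 held the lowest and the highest of all 24 values.

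The log2 fold change of miR-103-3p, high-fat over control, came to −0.10 ± 0.15 (SE) after 1 day, −0.06 ± 0.15 after 1 week and −0.09 ± 0.15 after 3 weeks. The mean of the 3 was −0.08 ± 0.09 (edgeR adjusted p 0.993), with a 95% interval of −0.26 to 0.10. With the counts of miR-103-3p and miR-107-3p added into 1 row before the fit, the mean contrast was −0.09 (adjusted p 0.992). With the leukocyte and muscle means as covariates, the mean contrast of miR-103-3p was −0.13 (edgeR unadjusted p 0.0891, adjusted p 0.969). Its week 1 contrast was then −0.25 (edgeR unadjusted p 0.0865, adjusted p 0.998). Without the 3 libraries highest in muscle markers the week 1 contrast was 0.12.

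In order, the group means of miR-103-3p were lowest in high-fat libraries at day 1 (4338 ± 460 CPM, SD, n = 4) and highest in control libraries at week 3 (5423 ± 350.3 CPM). Control libraries at day 1 (4653 ± 370.0), high-fat at week 1 (4878 ± 1089), control at week 1 (5083 ± 808) and high-fat at week 3 (5106 ± 444) lay between them, and every neighbouring pair in this order differed by less than the SD of either group. Week 3 over day 1 had a log2 fold change of 0.24 ± 0.15 on the high-fat diet and 0.22 ± 0.15 on the control diet (edgeR adjusted p 0.413 and 0.532). A joint test over the 3 times, averaged over the diets, gave an adjusted p of 0.303.

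The 5p partners of miR-103-3p were rare. Over all libraries the 2 miR-103 5p arms had 262 counts against 724916 of the 3p arm, 0.0361% of the sum (Wilson 95% interval 0.0320 to 0.0408%, which covers counting error only). Of these 262 counts, 226 were assigned to miR-103-2-5p of the Pank2 intron, 86.3% (81.6 to 89.9%). The 2 arms differ only at base 1 (A1G), so a read without that base fits both genes. How such reads were assigned is not stated, and the interval does not cover it. The 5p counts do not show how the 3p counts divide between the genes, since the share of hairpins that leave a 5p arm need not be the same for both.

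MiR-103-2-5p was the only 5p arm of miR-103 or miR-107 to pass the filter, with 3 to 21 counts in a library. Its level averaged 1.83 ± 0.37 CPM (SD, n = 4) in high-fat and 1.67 ± 0.37 CPM in control libraries at day 1. At week 1 the means were 1.69 ± 0.57 CPM in high-fat and 1.66 ± 0.78 CPM in control libraries, and at week 3 they were 1.45 ± 0.58 and 1.40 ± 0.25 CPM in high-fat and control libraries. The groups lay on top of one another, and the mean diet contrast was 0.08 ± 0.23 (edgeR adjusted p 0.993; 95% interval −0.39 to 0.55 in log2). MiR-103-1-5p of the Pank3 intron had 36 counts in all, 0 in 11 of the 24 libraries and 3 or fewer in 21, so no fold is given. Its highest counts were 9, in control replicate 4 at week 1, and 5, in high-fat replicate 3 and control replicate 1 at day 1.

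MiR-107-3p, which has the seed of miR-103-3p but comes from Pank1, had the lowest p over time of the 5 arms in the main model. At day 1 it had 72.9, 65.1, 69.3 and 82.8 CPM in the high-fat libraries and 78.6, 69.2, 56.5 and 65.2 CPM in the control libraries. At week 1 it had 88.6, 76.8, 124 and 93.2 CPM in the high-fat libraries and 99.4, 81.1, 86.0 and 115 CPM in the control libraries. At week 3 it had 69.4, 89.2, 86.5 and 63.6 CPM in the high-fat libraries and 71.8, 107, 120.5 and 87.6 CPM in the control libraries. On the control diet every week 1 library lay above every day 1 library, a separation upwards that 4.84% of the tested miRNAs showed, while on the high-fat diet the times overlapped. Skeletal muscle miRNAs were higher at the later times too: their mean log2 CPM was 4.72 ± 3.11 (SD, n = 4) at day 1, 7.76 ± 3.50 at week 1 and 8.31 ± 1.53 at week 3 on the high-fat diet, and 5.38 ± 1.55, 8.23 ± 2.01 and 7.81 ± 1.54 on the control diet.

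Week 3 over day 1, miR-107-3p had a log2 fold change of 0.09 ± 0.19 on the high-fat diet (95% interval −0.30 to 0.49; edgeR adjusted p 0.849) and 0.52 ± 0.19 on the control diet (0.13 to 0.92; unadjusted p 0.0121, adjusted p 0.205). It did not pass the threshold in either diet. On the high-fat diet 0 of the 5 arms had an unadjusted p under 0.05, against 15.8% of all tested miRNAs, with 0% passing after adjustment. On the control diet miR-107-3p alone of the 5 did, against 14.9% of all, with 0.358% passing. In the joint test over the 3 times its unadjusted p was 0.00971 and its adjusted p 0.106, again the only arm under 0.05 unadjusted, where 25.3% of the tested miRNAs were and 3.05% passed. With limma-voom and sample quality weights it passed this joint test (adjusted p 0.0365), where limma-voom called 61 of the 558. With the leukocyte and muscle means as covariates, the week 3 over day 1 value of miR-107-3p on the control diet was 0.52 (edgeR adjusted p 0.140) and its joint adjusted p was 0.185. In that fit miR-103-3p had the lowest joint p of the arms, 0.00786 (adjusted 0.0879), with 0.38 on the high-fat and 0.32 on the control diet at week 3 over day 1 (edgeR adjusted p 0.116 and 0.156).

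Between the diets, miR-107-3p had log2 fold changes of 0.10 ± 0.19 at day 1, 0.00 ± 0.19 at week 1 and −0.32 ± 0.19 at week 3, high-fat over control. The last had a 95% interval of −0.72 to 0.07 and an edgeR adjusted p of 0.999; in means, 77.2 ± 12.6 CPM (SD, n = 4) in high-fat against 96.7 ± 21.4 CPM in control libraries. With 1 library left out, the week 3 value ran from −0.40 (without control replicate 1 at week 3) to −0.19 (without control replicate 3 at week 3). The joint test of whether the diet difference changed with time gave an adjusted p of 0.676. In order, control at week 3 was followed by high-fat at week 1 (95.8 ± 20.3 CPM) and control at week 1 (95.5 ± 15.4 CPM), which differed by less than the SD of any of them. High-fat at week 3 lay below control at week 1 by more than the SD of either. Then came high-fat at day 1 (72.5 ± 7.57 CPM) and control at day 1 (67.4 ± 9.16 CPM), each within the SD of its neighbours. Its 5p partner miR-107-5p had 62 counts against 12718 of the 3p arm, 0.485% of the sum (Wilson 95% interval 0.379 to 0.621%), with 0 in 4 libraries and 3 or fewer in 18.

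The relation of miR-107-3p to miR-103-3p within a library does not depend on library size. Over the 24 libraries there were 1.30 to 2.55 counts of miR-107-3p per 100 of miR-103-3p (median 1.65), so miR-103-3p made up nearly all counts with the shared seed. The mean was 1.70 ± 0.37 (SD, n = 4) in high-fat and 1.45 ± 0.16 in control libraries at day 1, 2.01 ± 0.45 in high-fat and 1.89 ± 0.18 in control libraries at week 1, and 1.51 ± 0.14 in high-fat and 1.80 ± 0.50 in control libraries at week 3. The log2 ratio differed between the diets, high-fat minus control, by 0.22, 0.07 and −0.22 at the 3 times; exact permutation tests, two-sided, gave p of 0.371, 0.743 and 0.371. Regrouping the libraries within each time, in all 343000 ways, gave a mean difference of 0.02 and an exact permutation p of 0.855. With 4 libraries against 4 the smallest possible p is 0.0286, and all p adjusted over the 8 ratio tests were 1.

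**Figure D2:**
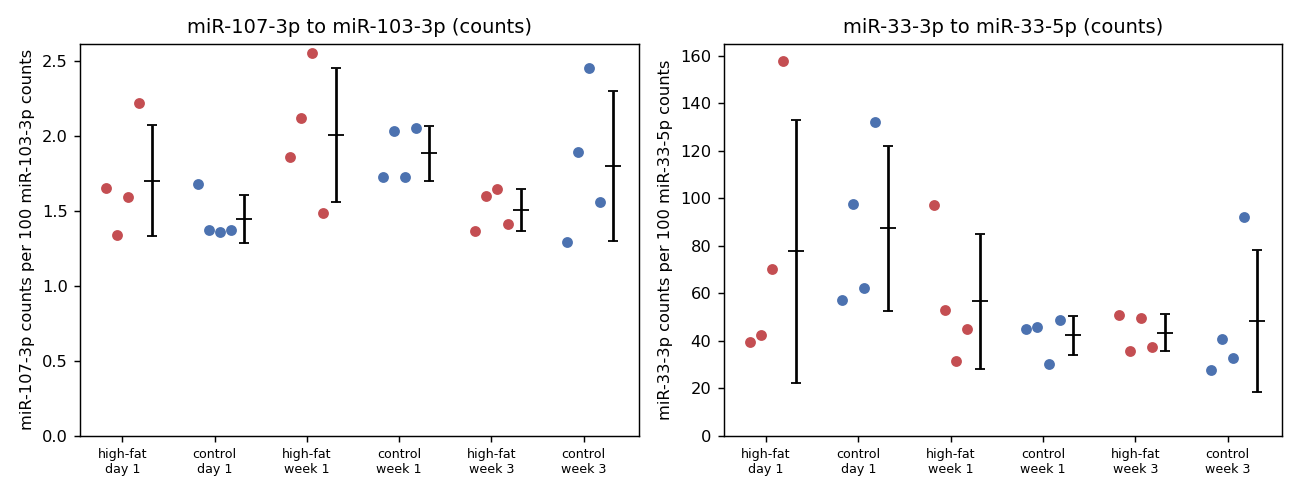
Counts of miR-107-3p per 100 counts of miR-103-3p (left) and of miR-33-3p per 100 of miR-33-5p (right) in each library, high-fat in red and control in blue, with the mean and SD of each group of 4. The left ratio stays between 1.30 and 2.55; the right one is between 27.7 and 97.4 in 22 libraries and above 100 in high-fat replicate 4 and control replicate 4 at day 1.

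Both arms of miR-33 were present at similar levels, unlike those of the other hairpins. Over all libraries miR-33-5p had 2275 counts and miR-33-3p 1137, so the 5p arm made up 66.7% of the hairpin's counts (Wilson 95% interval 65.1 to 68.2%). Each arm rested on few reads: 19 to 248 counts in a library for miR-33-5p and 13 to 142 for miR-33-3p.

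MiR-33-5p, the arm that represses Abca1, had 15.9, 13.4, 15.9 and 9.37 CPM in the high-fat and 20.5, 5.60, 18.1 and 5.57 CPM in the control libraries at day 1. At week 1 it had 8.01, 10.9, 13.1 and 16.1 CPM in the high-fat and 20.0, 20.6, 23.9 and 11.8 CPM in the control libraries. At week 3 it had 19.7, 19.4, 15.1 and 13.3 CPM in the high-fat and 10.4, 21.1, 21.0 and 11.5 CPM in the control libraries. At week 1, 3 of the 4 control libraries lay above all high-fat libraries and replicate 4 lay among them; at day 1 and week 3 the control libraries fell into a high and a low pair, with all high-fat libraries between them.

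The log2 fold change of miR-33-5p at week 1, high-fat over control, was −0.68 ± 0.37 (SE), with a 95% interval of −1.45 to 0.09, an edgeR unadjusted p of 0.0827 and an adjusted p of 0.382. It was 0.14 ± 0.37 at day 1 and 0.07 ± 0.37 at week 3, and −0.16 ± 0.21 for the mean of the 3 times (95% interval −0.60 to 0.28). Whether these differed between the times was not shown by the joint test (adjusted p 0.651). Week 3 over day 1 it had 0.29 ± 0.37 on the high-fat diet and 0.36 ± 0.36 on the control diet (edgeR adjusted p 0.735 and 0.659).

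In means, miR-33-5p was at 13.6 ± 3.09 CPM (SD, n = 4) in high-fat and 12.4 ± 7.97 CPM in control libraries at day 1. At week 1 it was at 12.0 ± 3.42 CPM in high-fat and 19.1 ± 5.12 CPM in control libraries, and at week 3 at 16.9 ± 3.19 CPM in high-fat and 15.997 ± 5.90 CPM in control libraries. Control at week 1 was thus the highest group and high-fat at week 1 the lowest, and each group differed from its neighbours in the order by less than the SD of either.

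Most leukocyte miRNAs and, by less, the adipocyte-enriched ones had lower values on the high-fat diet at week 1, like miR-33-5p. Epithelial, erythrocyte and liver markers had higher values, and endothelial miR-126a-3p had a log2 fold change of 0.04. Muscle markers had edgeR fold changes above 0 at week 1. Their mean log2 CPM was instead lower in high-fat (7.76 ± 3.50, SD, n = 4) than in control libraries (8.23 ± 2.01). High-fat replicate 2 at week 1 held 11.6, the highest muscle mean of the 24 libraries. The mean log2 CPM of the 7 leukocyte miRNAs was 9.72 ± 0.86 (SD, n = 4) in high-fat and 10.95 ± 0.84 in control libraries. On the high-fat diet 6 of the 7 were lower (median log2 fold change −1.49, against −0.02 over all tested). Of the 7, 0 passed the adjusted threshold and 5 had an unadjusted edgeR p under 0.05, against 0% and 14.2% of all tested miRNAs. Muscle (5 of 5 tested, median 0.66), epithelial (6 of 6, 0.38) and erythrocyte (4 of 4, 0.29) miRNAs had log2 fold changes above 0. So did liver miR-122-5p (1.36), while the 4 adipocyte-enriched ones were lower (median −0.11), with 0 passing in any of these lists. With the leukocyte and muscle means as covariates the week 1 contrast of miR-33-5p was −0.11 (edgeR adjusted p 0.998). Over the 24 libraries, Pearson's r of log2 CPM between miR-33-5p and the leukocyte, muscle and adipocyte-enriched means was 0.513, −0.012 and −0.313. For miR-33-3p these were 0.645, −0.401 and −0.064. The 3 libraries with the lowest leukocyte mean had 10.4, 13.1 and 8.01 CPM of miR-33-5p, and the 3 with the highest mean had 20.6, 15.9 and 20.0 CPM. The next in order, high-fat replicate 4 at day 1, had 9.37 CPM. The part of these cells in the miR-33-5p levels was not tested beyond this.

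**Figure D3:**
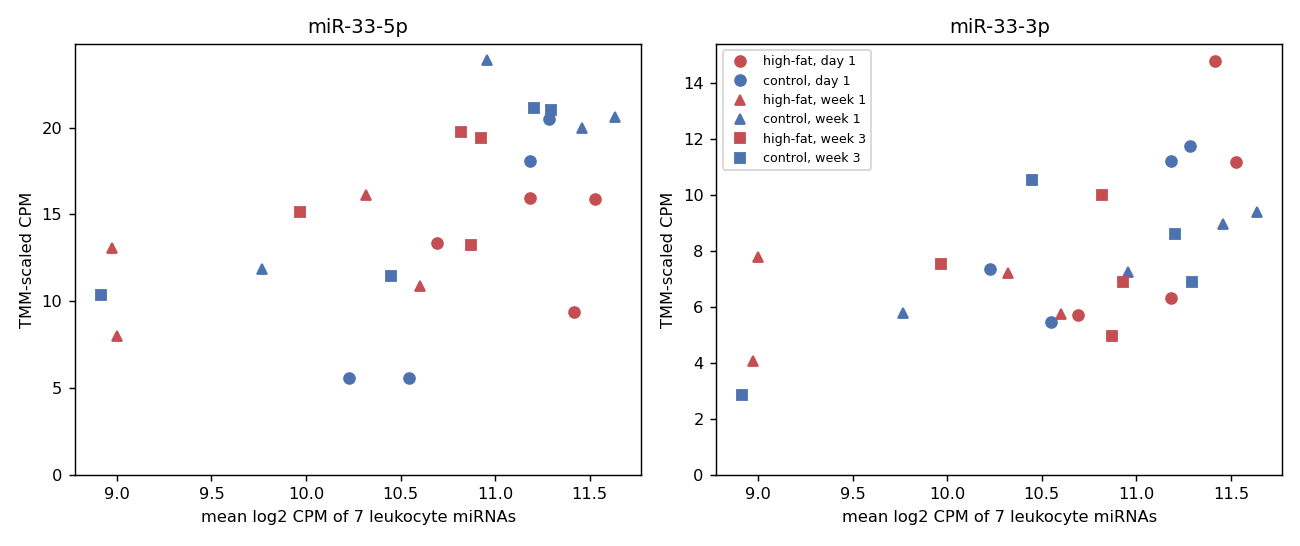
TMM-scaled CPM of miR-33-5p (left) and miR-33-3p (right) against the mean log2 CPM of 7 leukocyte miRNAs in the 24 libraries, high-fat in red and control in blue, with circles for day 1, triangles for week 1 and squares for week 3. The 3 libraries lowest in leukocyte miRNAs hold 8.01 to 13.1 CPM of miR-33-5p, and the 2 control day 1 libraries at 5.57 and 5.60 CPM of miR-33-5p lie below the others at a middle leukocyte level.

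MiR-33-3p, the partner arm, had 6.31, 5.69, 11.2 and 14.8 CPM in the high-fat and 11.7, 5.46, 11.2 and 7.36 CPM in the control libraries at day 1. At week 1 it had 7.78, 5.76, 4.08 and 7.21 CPM in the high-fat and 8.95, 9.39, 7.23 and 5.77 CPM in the control libraries. At week 3 it had 9.99, 6.90, 7.51 and 4.97 CPM in the high-fat and 2.86, 8.59, 6.89 and 10.5 CPM in the control libraries. The diets overlapped at each time. The highest value was that of high-fat replicate 4 at day 1 and the lowest that of control replicate 1 at week 3, which also had the lowest leukocyte mean of all libraries (8.92).

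High-fat over control, its log2 fold change came to 0.04 ± 0.35 after 1 day, −0.33 ± 0.36 after 1 week and 0.02 ± 0.36 after 3 weeks. The week 1 value was −0.093 without high-fat replicate 3 at week 1, and 0.13 with the leukocyte and muscle covariates. The mean of the 3 was −0.09 ± 0.21 (edgeR adjusted p 0.993; 95% interval −0.51 to 0.34). Week 3 over day 1 it had −0.32 ± 0.36 on the high-fat and −0.30 ± 0.35 on the control diet (edgeR adjusted p 0.670 and 0.700). With the covariates these were 0.13 and −0.11.

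There were 27.7 to 158 counts of miR-33-3p per 100 of miR-33-5p, with a median of 47.2 over the 24 libraries. The group means were 77.6 ± 55.3 (SD, n = 4) in high-fat and 87.2 ± 34.9 in control libraries at day 1, 56.5 ± 28.5 in high-fat and 42.3 ± 8.22 in control libraries at week 1, and 43.4 ± 7.90 in high-fat and 48.3 ± 29.7 in control libraries at week 3. High-fat and control replicate 4 at day 1, with 158 and 132, were the only libraries with more 3p than 5p counts, on 19 and 28 counts of miR-33-5p. The log2 ratio differed between the diets, high-fat minus control, by −0.32, 0.32 and 0.00 at the 3 times; exact permutation tests, two-sided, gave p of 0.600, 0.400 and 1. Over the 3 times the exact stratified permutation p was 0.996. Without high-fat replicate 1 at week 1, the week 1 difference was 0.03.

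**Figure D4:**
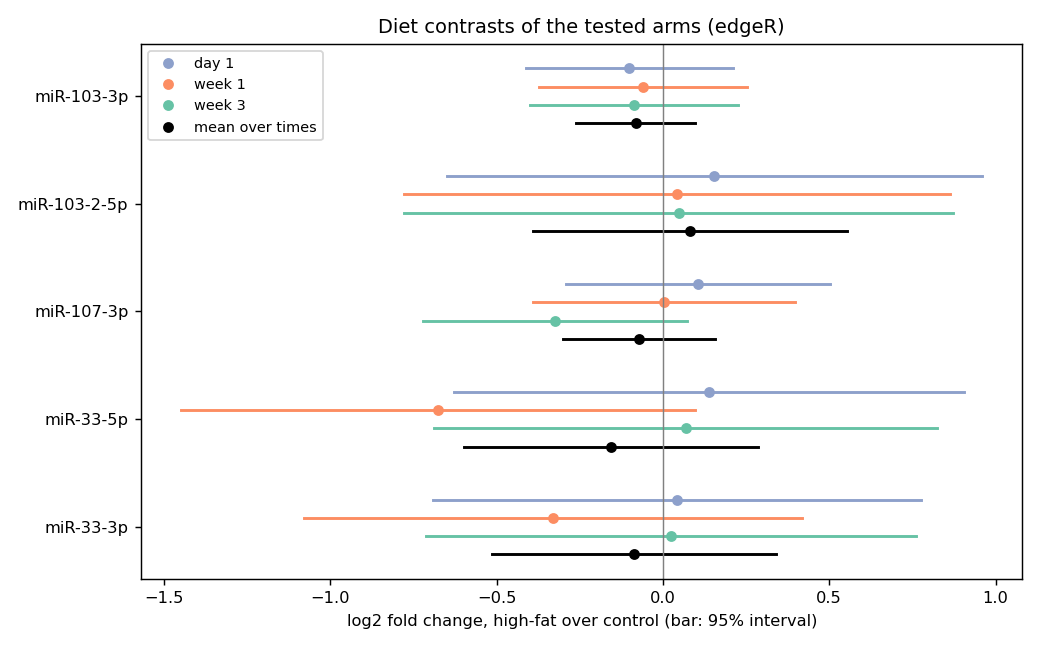
Log2 fold change of high-fat over control for the 5 tested arms (points) with 95% intervals (bars) at day 1, week 1 and week 3 and for the mean of the 3 times, from the edgeR fit. All intervals include 0; they are narrowest for miR-103-3p (−0.26 to 0.10 for the mean) and widest for miR-103-2-5p and the miR-33 arms.

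The arms did not follow each other closely over the 24 libraries. Pearson's r of log2 CPM was 0.420 between miR-103-3p and miR-107-3p and 0.275 between the arms of miR-33; these are descriptions, since all values of a library share its size factor. Among 356 other tested miRNAs with a mean of at least 10 CPM, those most like miR-103-3p were miR-125b-2-3p (r = 0.806), miR-214-3p (0.729) and miR-199a-3p (0.717). Those most like miR-107-3p were miR-324-3p (0.726), miR-23b-3p (0.717) and miR-199a-5p (0.686). Those most like miR-33-5p were miR-92a-3p (0.769), let-7f-2-3p (0.747) and miR-181a-1-3p (0.728).

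The miR-15/16 group is known to have an offset form of the miR-103 seed: AGCAGCA starts at base 2 in 6 of the 7 members listed, miR-16-5p and miR-195a-5p among them, and at base 1 in miR-103-3p. The other member, miR-503-5p, has the seed AGCAGCG. Its 2 most abundant members are shown with the seed in capitals.
miR-16-5p: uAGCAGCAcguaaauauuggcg
miR-195a-5p: uAGCAGCAcagaaauauuggc

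All 7 members of this group were tested, and 0 passed between the diets at any time, where 0% of all tested miRNAs did. At day 1, 6 of the 7 were lower on the high-fat diet, with a median log2 fold change of −0.35 against −0.01 over all tested. At week 1, 4 were higher and 3 lower, with a median of 0.14 against −0.02, and at week 3 all 7 were lower, with a median of −0.04 against −0.05. MiR-322-5p, of an X-linked cluster, fell by 0.79 ± 0.17 on the log2 scale at week 3 against day 1 on the control diet (edgeR adjusted p 0.0288) and was the only member that passed there; with no filter on low counts, with the replicate block, or without control replicate 2 or 3 at day 1 or 1 or 2 at week 3, 0 miRNAs passed in that contrast. In the main fit 0.358% of all tested miRNAs passed in that contrast. In the joint test over time miR-322-5p also passed (edgeR adjusted p 0.00861), where 3.05% of all tested did. At week 3 against day 1 on the control diet, miR-195a-5p had −0.02 ± 0.20 and miR-16-5p −0.04 ± 0.29, against 0.52 for miR-107-3p.

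Other miRNAs, listed for roles in the same pathways or for lying in introns, likewise showed no diet call. For the mean diet contrast 0% of all tested miRNAs were called, and for the joint test over time 3.05%. Of 15 miRNAs tied to cholesterol and lipid handling, 4 were higher and 11 lower for the mean diet contrast (median −0.03, against −0.04 over all tested), and 0 passed. Adipocyte miR-148a-3p, which represses Abca1 in liver, had −0.02 ± 0.14, and miR-27b-3p, which acts on lipid genes, had −0.03 ± 0.08. Of 13 tested miRNAs tied to insulin signalling, 4 were higher and 9 lower (median −0.01), with 0.09 ± 0.13 for miR-143-3p and 0.00 ± 0.09 for miR-126a-3p, and 0 passed; in the joint test over time let-7d-5p passed (edgeR adjusted p 0.0143). The list of other intronic arms was not limited to metabolic or adipose genes and held miR-499-5p, also among the skeletal muscle miRNAs. Of its 12 tested arms, 7 were higher and 5 lower (median 0.02), and 0 passed. Among these, miR-378a-3p of Ppargc1b had −0.14 ± 0.13 and miR-26b-5p of Ctdsp1 −0.02 ± 0.14, while in the joint test over time miR-26b-5p passed (edgeR adjusted p 0.0259).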

How the data were processed

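Small RNA libraries from TRIzol-purified RNA of subcutaneous fat were made with a NEBNext kit, per the labels' protocols. The authors deposited raw read counts per mature miRNA name, 1 column per library. FastQC, Trim Galore, Bowtie2 and featureCounts with build mm10 were used, per the submitters' processing notes; their versions, and how reads with several genomic matches were treated, are not stated. MiR-103-3p, made from 2 genes, and its near copy miR-107-3p are therefore uncertain as separate counts.

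Counts of all 24 libraries entered 1 cell-means model of the 6 groups in edgeR 4.0.16 (R 4.3.3; TMM; filterByExpr, which keeps a miRNA at a CPM worth 10 counts in a library of median size in at least 4 libraries, and 15 counts summed over all; robust quasi-likelihood; adjusted p under 0.05 over 558 miRNAs). SE was derived from the fold change and F. The fit was tested on simulated data. The same model gave 8 comparisons: the diets at each time, their mean, diet by time, week 3 against day 1 in each diet, and time jointly. Levels are TMM-scaled CPM; log2 CPM used a prior count of 2. Log2 ratios of 2 arms used a pseudocount of 0.5 counts and exact permutation tests of 4 libraries against 4. Alternatives were RLE factors, library totals, no filter, DESeq2 1.42.0, limma-voom (limma 3.58.1), marker covariates, summed rows and left-out libraries. No libraries of a group agreed within sampling noise (chi-square per degree of freedom at least 148), so none were merged. The numbers were not taken as pairs, since the labels do not say what they mark. Same-numbered libraries of the 2 diets had correlated deviations (r above 0.1) in 7 of 12 pairs, which cannot decide this.

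Named were all 7 arms, the 3 miRNAs most like each of 3 arms, and of 11 lists those past the threshold or the 2 most abundant; for the cell markers only the list values are given. The arms and lists were chosen with earlier results of these data known.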

Additional observations from a re-analysis of the deposited data

Results flagged for a closer look

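Each group of 4 libraries was screened for a library far from the other 3, 42 groups in all, of which chance flags about 1 in 20. MiR-103-3p in control replicate 3 at week 3 stood below the others at 4901 CPM. MiR-103-2-5p in high-fat replicate 2 at week 1 stood below at 0.853 CPM, on 4 counts, in the library with the highest muscle mean (11.6), and in control replicate 2 at week 3 it stood above at 1.77 CPM. The log2 ratio of miR-107-3p to miR-103-3p was above the others in control replicate 1 at day 1, at −5.89. That of miR-33-3p to miR-33-5p was below the others in control replicate 3 at week 1, at −1.72.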

How the results depend on the processing

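Of 1520 recomputed values of the arms and ratios under the alternatives, 71 changed sign, 1 became a call and the other 1448 did neither. The joint tests among them have no direction and could not change sign. No arm or ratio passed in the main model, so no call could be lost. The causes of these changes were not tested. In the fit with marker covariates the values that changed sign included some of −0.24 to −0.35 in the main model. Counts were low for the 5p arms of miR-103 and miR-107, and the miR-33 arms had wide intervals.

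Unscaled library totals gave −0.042 for miR-103-2-5p, −0.041 for miR-33-5p and −0.056 for miR-33-3p between the diets at week 3. With no filter on low counts the diet contrast was −0.014 for miR-33-3p at day 1 and −0.030 for miR-107-3p at week 1, and week 3 against day 1 had 1 call on the high-fat and 0 on the control diet. DESeq2 made 11 and 6 calls there and 41 for time jointly. Limma-voom made 17 calls between the diets at week 1, 14 and 4 for week 3 against day 1 on the high-fat and control diets, and 61 for time jointly; its diet contrasts were −0.22 for miR-33-3p at day 1, 0.024 for miR-103-3p at week 1, and −0.10, −0.060 and −0.090 for miR-103-2-5p, miR-33-5p and miR-33-3p at week 3. Without the 3 libraries highest in muscle markers there were 31 calls between the diets at week 1, 1 for week 3 against day 1 on the high-fat diet and 30 for time jointly, and the diet contrasts were 0.12 for miR-103-3p and −0.012 for miR-103-2-5p at week 1 and 0.022 for miR-107-3p in the mean. With muscle and leukocyte covariates, miR-33-3p had −0.15 at day 1, 0.13 at week 1 (−0.33 without them) and 0.022 in the mean. In that fit week 3 against day 1 made 9 calls on the high-fat diet, with 0.15 for miR-103-2-5p (−0.35 without them) and 0.13 for miR-33-3p (−0.32), and 15 on the control diet, with 0.059 for miR-103-2-5p (−0.24). With a pseudocount of 5 the miR-33 log2 ratio differed by 0.0077 at week 3.

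With the replicate block, week 3 against day 1 on the control diet made 0 calls, miR-107-3p had −0.0062 between the diets at week 1 and miR-103-2-5p −0.020 at week 3. Same-numbered libraries of the diets had r of −0.51 to 0.453, and the labels do not say whether the numbers mark a shared litter, batch or day.

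Leaving out each library in turn gave 0 to 22 calls between the diets at week 1, 0 to 2 for the mean, 0 to 3 and 0 to 4 for week 3 against day 1 on the high-fat and control diets, and 8 to 30 for time jointly. Diet contrasts that changed sign ran from −0.055 to 0.57 for miR-33-5p and −0.17 to 0.26 for miR-33-3p at day 1. At week 1 they ran from −0.18 to 0.092 for miR-103-3p, −0.22 to 0.33 for miR-103-2-5p and −0.072 to 0.15 for miR-107-3p. At week 3 they ran from −0.13 to 0.00020 for miR-103-3p, −0.17 to 0.26 for miR-103-2-5p, −0.039 to 0.25 for miR-33-5p and −0.18 to 0.30 for miR-33-3p. In the mean they ran from −0.20 to 0.0034 for miR-33-5p and −0.14 to 0.027 for miR-33-3p, and miR-107-3p at week 3 against day 1 on the high-fat diet from −0.029 to 0.12. The miR-107-3p to miR-103-3p log2 ratio differed by 0.079 to 0.32 at day 1, −0.057 to 0.20 at week 1, −0.37 to −0.060 at week 3 and −0.028 to 0.075 over all times; that of the miR-33 arms by −0.73 to −0.076, 0.027 to 0.56, −0.20 to 0.36 and −0.14 to 0.12.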
